A study of Rattus norvegicus with 16 samples.

Results

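Mitochondria in muscle fibres join and divide, and 8 genes of that machinery were followed here in the soleus of trained and sedentary rats of 2 selected lines. The genes were Mfn1, Mfn2 and Opa1, which act in fusion, Dnm1l, Fis1 and Mff, which act in fission, Oma1, which cleaves the OPA1 protein, and Immt, which shapes the inner membrane. They were chosen by name: every probe set whose only gene symbol in the platform annotation was 1 of the 8 was taken, which gave 13 of the 31042 probe sets tested. Mfn1, Mfn2, Fis1 and Oma1 had 1 probe set each, Opa1, Dnm1l and Mff had 2, and Immt had 3. The brightest probe set of each gene, by its mean over all arrays, stands for the gene below, and the other 5 are named by their probe set identifiers. Of these, Dnm1l 1388022_a_at and Mff 1384003_at had a mean under the 40th percentile of all probe sets, 5.61 on the log2 scale.

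The study compared HCR rats, bred over generations for high running capacity on a treadmill, with LCR rats, bred for low capacity, both from the N:NIH founder stock. All 16 rats were females of generation 16, killed at about 7 months of age, and each gave 1 soleus RNA sample on 1 Affymetrix array. The groups were HCR trained, HCR sedentary, LCR trained and LCR sedentary, with 4 rats in each. Trained rats ran uphill intervals on 5 days a week for 8 weeks at 85 to 90% of maximal oxygen uptake, and muscle was taken 48 hours after the last session, while sedentary rats of the same age did not train. The labels name no transgene or drug, and line and training are the only factors they give. Parents were picked each generation on a running test at 11 weeks of age, so a difference between the lines carries everything that differed between the 2 breeding populations. Each sample is labelled as its own rat, and p-values rest on the spread between rats.

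Mitochondria form a network that is remodelled by large GTPases. MFN1 and MFN2 tether and fuse the outer membranes of neighbouring mitochondria, and OPA1 fuses the inner membranes and holds the cristae, the folds that carry the respiratory chain. OMA1 is a stress-activated protease of the inner membrane that cuts long OPA1 into short forms. Division is carried out by DRP1, the product of Dnm1l, which is drawn from the cytosol to the outer membrane by receptors such as MFF, and FIS1 is a further outer membrane protein linked to division. Mitofilin, the product of Immt, is the core of the MICOS complex at the necks of the cristae. Fusion genes are among the nuclear genes driven by the coactivator PGC-1alpha with ERR-alpha in muscle, and NRF1 and the ETS factor GABP bind the promoters of many nuclear genes for mitochondrial proteins.

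Promoter windows are shown for Oma1, Opa1 and Mfn1 because each holds a core motif of NRF1 or GABP, and because Oma1 gave the smallest p-value of the members for training in the HCR line. The windows of RefSeq in the build GRCr8 run from 250 bases before to 50 bases after an annotated start of a gene, called the start here. Of the 8 genes 6 had 1, with 2 windows for Fis1. For Oma1, Opa1 and Mfn1 this start lies inside the gene's annotated span, so bases before it can also lie inside the span. Capitals mark matches to the NRF1 core, GCGCNNGCG, or to the ETS core bound by GABP, CCGGAAG, on either strand. Where matches on both strands overlapped, the capitals cover both. The stretches printed are Oma1 chr5:123312517-123312774 (+ strand), Opa1 chr11:84689901-84690150 (- strand) and Mfn1 chr2:117241508-117241757 (+ strand), each 5′ to 3′ in the gene's direction.
Oma1: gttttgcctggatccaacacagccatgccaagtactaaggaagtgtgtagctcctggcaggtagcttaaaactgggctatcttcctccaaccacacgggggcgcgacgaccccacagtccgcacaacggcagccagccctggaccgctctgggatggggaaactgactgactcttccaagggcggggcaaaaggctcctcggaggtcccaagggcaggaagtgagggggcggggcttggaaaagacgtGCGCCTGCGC
Opa1: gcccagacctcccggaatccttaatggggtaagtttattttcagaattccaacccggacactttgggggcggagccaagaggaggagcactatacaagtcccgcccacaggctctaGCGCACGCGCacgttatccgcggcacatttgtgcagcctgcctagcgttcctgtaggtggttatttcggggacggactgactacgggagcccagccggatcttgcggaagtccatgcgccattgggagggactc
Mfn1: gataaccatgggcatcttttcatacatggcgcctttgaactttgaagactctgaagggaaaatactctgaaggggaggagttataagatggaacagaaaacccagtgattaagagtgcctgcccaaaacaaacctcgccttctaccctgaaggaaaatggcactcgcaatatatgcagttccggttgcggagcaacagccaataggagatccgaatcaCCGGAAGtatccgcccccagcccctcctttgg
The Oma1 stretch ends 8 bases past the start, where its overlapping NRF1 matches end. In Opa1 the NRF1 match ended 124 bases before the start, and in Mfn1 the ETS match ended 25 bases before it. Of the 7 windows, 2 held the NRF1 core, against 10.9% of all 33469 windows in the table, and 2 held the ETS core, against 8.75%. The second ETS match lay in a Fis1 window and ended 8 bases past that start. The core bound by ERR factors, AAGGTCA, was in 0 of the 7 windows and in 4.61% of all. A match describes these letters and is not evidence of binding.

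Some arrays stood apart before any comparison. Across probe sets, pairs of arrays correlated between 0.941 and 0.996, no pair was identical, and array medians lay between 5.90 and 5.98. The soleus label was checked against Myh7, the slow myosin, which read 12.05 on HCR trained 3 and 14.27 to 14.52 on the other 15 arrays. The fast myosin Myh4 read 13.57 on that array, from 8.43 to 11.08 on its 3 companions, and at most 8.03 in the other groups. HCR sedentary 2 had the highest means of matrix and macrophage markers, at 1.39 and 0.98 log2 units above the mean of all arrays. These are means over 5 of 5 matrix and 8 of 8 macrophage genes measured. It also had the lowest mean of 17 genes of mitochondrial content, at -0.45, against -0.11 to 0.13 on the other arrays. Several counts that use either array are also given without it, though not every count that moves, and the LCR training difference uses neither. In whole muscle, fewer cells of a type and less RNA per cell cannot be told apart.

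A control measure of the arrays also moved with several members. The beta-actin index is the signal of the 3′ control probe set minus that of the middle one. It may reflect RNA quality, labelling or actin expression, which these values cannot tell apart. It was 1.90 ± 0.35 in HCR trained, 1.18 ± 0.54 in HCR sedentary, 1.27 ± 0.14 in LCR trained and 1.65 ± 0.32 in LCR sedentary rats (SD, n = 4 each). Its mean was thus higher in trained than in sedentary HCR rats, and lower in trained than in sedentary LCR rats. Its lowest value was 0.38, on HCR sedentary 2, and its highest 2.37, on HCR trained 2. A second control index, GAPDH 3′ minus 5′, also stood apart on HCR trained 2, at 1.67, against 0.48 to 0.77 on the other arrays. Counts by direction were not repeated without HCR trained 2. Fits that include the beta-actin index as a term are called actin-adjusted below.

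In HCR rats the training difference was positive for 7 of the 8 genes and negative for Dnm1l, with a median of 0.20 log2 units, against 0.00436 over all probe sets. For Mfn2 and Fis1 it was smaller than its SE. In limma's moderated test 0 of the 13 probe sets passed an adjusted p of 0.05, which 0.187% of all probe sets passed. At an unadjusted p under 0.05 there were 4 of 13, Oma1, Mff and Immt 1380154_at higher and Dnm1l lower, against 17.7% of all probe sets. Trained and sedentary values did not overlap for 2 of 13, Oma1 and Mff, both higher, against 7.61% of all. Without HCR trained 3 the split of the 8 genes was again 7 higher and 1 lower. Without HCR sedentary 2 it became 5 higher and 3 lower, with a median of 0.12, and in the actin-adjusted fit it became 4 and 4, with a median of 0.0093. At an unadjusted p under 0.05, 4 of 13 were higher and 2 lower without HCR trained 3, against 3889 and 2740 of all 31042. Without HCR sedentary 2 there were 3 and 0, against 2441 and 1570. In the actin-adjusted fit there were 2 and 0, against 1220 and 1024. Over all 13 probe sets the main split by direction was 8 higher and 5 lower.

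Training in the LCR line gave 3 genes with higher and 5 with lower values, with a median difference of -0.076, against -0.024 over all probe sets and -0.013 in the actin-adjusted fit. Over all 13 probe sets 7 were higher and 6 lower. Again 0 of the 13 passed, against 0.00322% of all probe sets. Mfn2, which was lower, was the only 1 of 13 at an unadjusted p under 0.05, where 9.76% of all lay, and the only 1 whose groups did not overlap, where 8.5% of all did not.

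**Figure D1:**
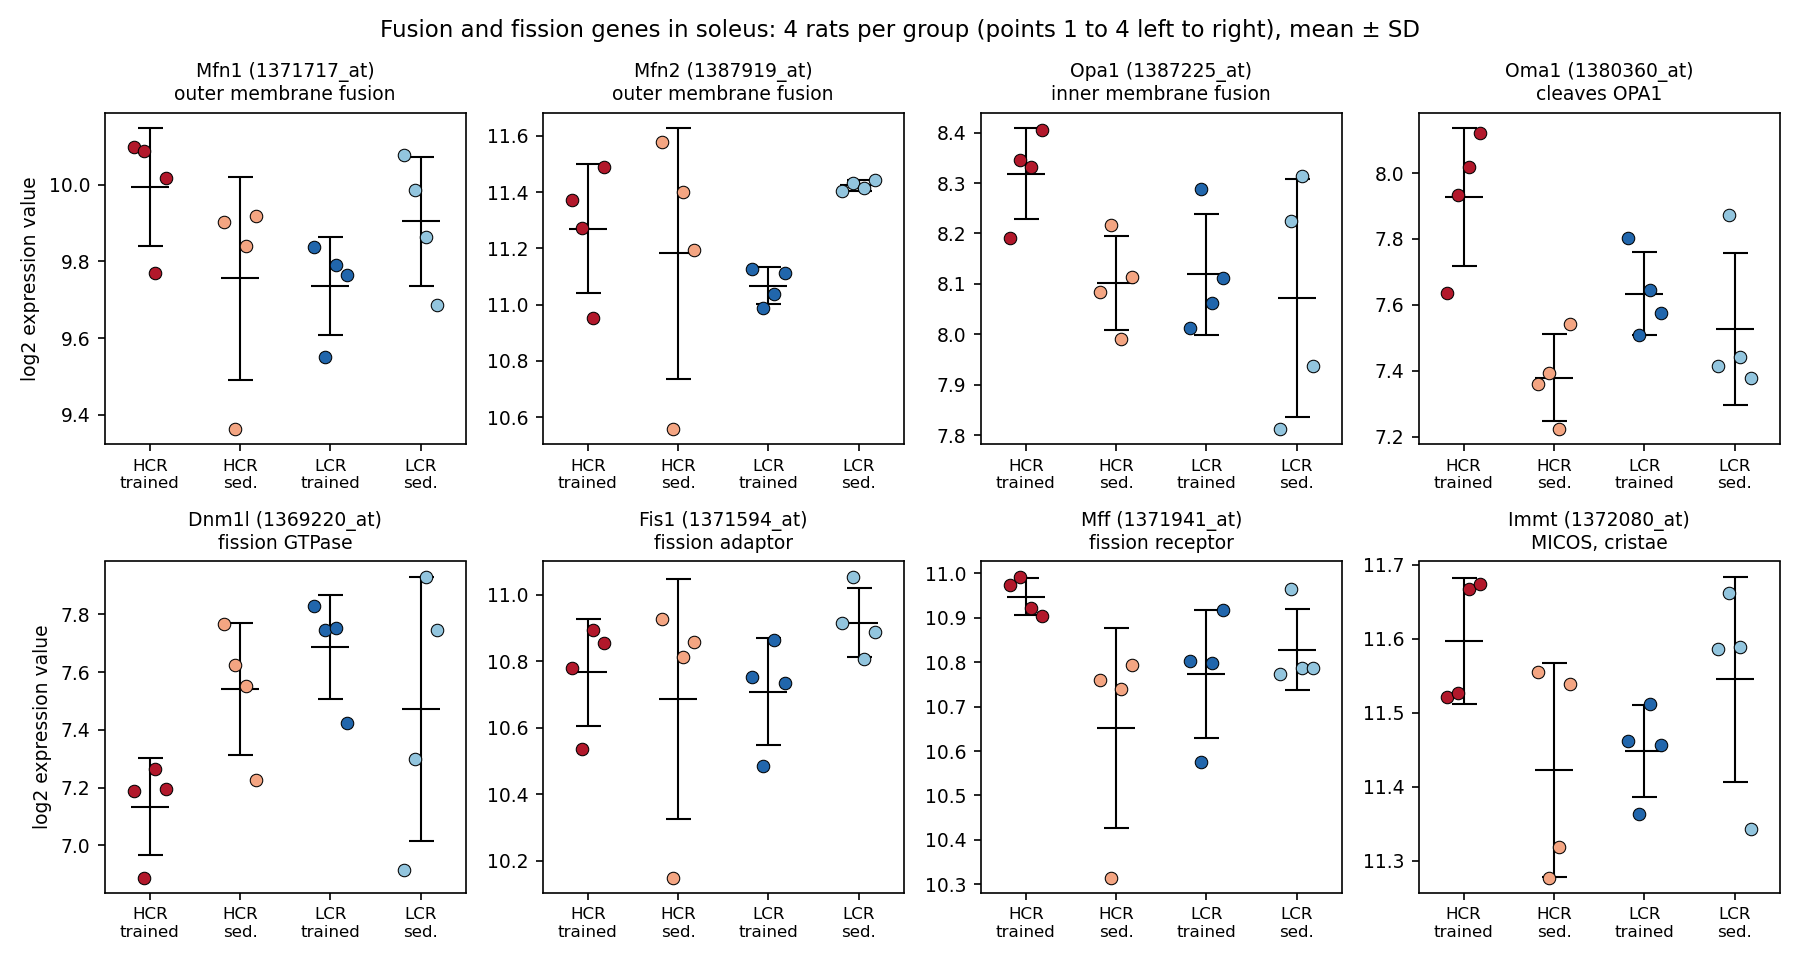
Log2 level of the brightest probe set of each gene on every array, with groups from left to right HCR trained, HCR sedentary, LCR trained and LCR sedentary, points for rats 1 to 4 and bars for the mean and SD (n = 4). Oma1 and Mff lie higher in all 4 HCR trained rats than in any HCR sedentary rat, Mfn2 lies lower in all 4 LCR trained rats than in any LCR sedentary rat, and HCR sedentary 2 is far below its group for Mfn1, Mfn2, Fis1 and Mff.

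Among the fusion genes of the outer membrane, Mfn2 read lower in every trained than in any sedentary LCR rat, while its values overlapped between trained and sedentary HCR rats. MFN2 also tethers mitochondria to the sarcoplasmic reticulum. Its log2 levels were 11.13, 10.99, 11.04 and 11.11 in LCR trained rats, against 11.40, 11.43, 11.41 and 11.44 in LCR sedentary rats. The groups did not overlap, and the SD was 0.07 in trained and 0.02 in sedentary rats. The difference was -0.36 (SE 0.17, 95% interval -0.71 to -0.00147), a 1.28-fold lower level in trained rats, with an adjusted p of 0.511 in limma. The SE pools the spread of the 4 groups, and HCR sedentary rats had an SD of 0.45. Leaving out HCR sedentary 2, which is not part of this difference, changes only the pooled SE, to 0.10, with an adjusted p of 0.194. When the 8 LCR arrays were fitted by themselves, with an SE of 0.06, it was 0.0837. In the actin-adjusted fit the difference was -0.20 (SE 0.15, adjusted p = 0.922).

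In the HCR line Mfn2 read 11.37, 11.27, 10.95 and 11.49 in trained rats, against 11.58, 10.56, 11.40 and 11.19 in sedentary rats. These values overlapped, and the difference of 0.088 (SE 0.17, adjusted p = 0.830) became -0.12 without HCR sedentary 2, the array at 10.56. The difference between the lines in their response was 0.44 (SE 0.24, 95% interval -0.06 to 0.95, adjusted p = 0.327). It was 0.24 without HCR sedentary 2 (adjusted p = 0.488) and -0.022 in the actin-adjusted fit.

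Mfn1, the mitofusin with the stronger tethering activity, had training differences of opposite sign in the 2 lines. It read 10.10, 10.09, 9.77 and 10.02 in HCR trained rats, against 9.90, 9.36, 9.84 and 9.92 in HCR sedentary rats, and 9.84, 9.55, 9.79 and 9.76 in LCR trained rats, against 10.08, 9.99, 9.86 and 9.69 in LCR sedentary rats. Values overlapped in both lines. With training the difference was 0.24 in HCR (SE 0.13, adjusted p = 0.340) and -0.17 in LCR (SE 0.13, adjusted p = 0.673), and the responses differed by 0.41 (SE 0.18, 95% interval 0.03 to 0.78, adjusted p = 0.241). Without HCR sedentary 2, the array at 9.36, the HCR difference was 0.11 (adjusted p = 0.712) and the interaction 0.27 (adjusted p = 0.385). Both turned negative in the actin-adjusted fit, at -0.054 and -0.040, and the LCR difference was -0.014.

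Oma1 had the largest HCR training difference among the 8 brightest probe sets and the smallest p-value of all 13. It read 7.64, 7.93, 8.02 and 8.12 in HCR trained rats, against 7.36, 7.39, 7.22 and 7.54 in HCR sedentary rats. Every trained rat was above every sedentary rat. The difference was 0.55 (SE 0.12, 95% interval 0.29 to 0.81), a 1.46-fold level (95% interval 1.22 to 1.75), and its adjusted p in limma was 0.0671. It did not pass, and ranked 208th by p among the 31042 probe sets. Leaving out single arrays moved the difference between 0.48 and 0.65 and the adjusted p between 0.0375 and 0.161. The adjusted p was under 0.05 without HCR trained 1 (0.048), without HCR sedentary 4 (0.0446) and without LCR sedentary 2 (0.0375), and it was 0.0262 with array weights. Without HCR sedentary 2 the difference was again 0.55 (adjusted p = 0.151), and in the actin-adjusted fit it was 0.47 (adjusted p = 0.578).

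In LCR rats Oma1 read 7.80, 7.51, 7.64 and 7.58 after training, against 7.41, 7.87, 7.44 and 7.38 in sedentary rats. All 4 LCR trained values lay above 3 of the 4 sedentary values, and LCR sedentary 2, at 7.87, lay above them all. The difference was 0.11 (SE 0.12, 95% interval -0.15 to 0.37, adjusted p = 0.795). The HCR response exceeded the LCR response by 0.44 (SE 0.17, 95% interval 0.07 to 0.81, adjusted p = 0.201), and averaged over both lines the trained rats were higher by 0.33 (SE 0.09, adjusted p = 0.207). The interaction was 0.32 in the actin-adjusted fit.

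Opa1, the target of OMA1, read 8.19, 8.35, 8.33 and 8.40 in HCR trained rats, against 8.08, 8.22, 7.99 and 8.11 in HCR sedentary rats. Only HCR sedentary 2, at 8.22, lay inside the trained range, above HCR trained 1. The difference was 0.22 (SE 0.10, 95% interval -0.00104 to 0.43, adjusted p = 0.285), and 0.33 in the actin-adjusted fit. In LCR rats Opa1 read 8.01, 8.29, 8.06 and 8.11 after training, against 7.81, 8.22, 8.31 and 7.94 in sedentary rats, a difference of 0.047 (SE 0.10, adjusted p = 0.904). The second probe set of Opa1, 1384608_at, went the other way in HCR, with a mean of 5.61 ± 0.28 in trained rats and 5.82 ± 0.28 in sedentary rats (SD, n = 4 each), a difference of -0.21 (SE 0.17, adjusted p = 0.555). The 2 probe sets of Opa1 therefore do not give 1 direction for the gene, and their mean over the trained lines had a difference of -0.15 where that of the brightest probe set was 0.20.

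Dnm1l, the GTPase that cuts mitochondria, was the only 1 of the 8 genes lower after training in HCR. It read 7.19, 6.89, 7.26 and 7.20 in HCR trained rats, against 7.76, 7.63, 7.55 and 7.22 in HCR sedentary rats. Apart from HCR sedentary 4, at 7.22, all sedentary rats lay above all trained rats. The difference was -0.41 (SE 0.19, 95% interval -0.80 to -0.011, adjusted p = 0.269), and -0.078 in the actin-adjusted fit. In LCR rats it read 7.83, 7.75, 7.75 and 7.42 after training, against 6.91, 7.30, 7.93 and 7.75 in sedentary rats, with wide overlap and a difference of 0.22 (SE 0.19, adjusted p = 0.718). The responses differed by -0.62 (SE 0.26, 95% interval -1.18 to -0.06, adjusted p = 0.227), and by -0.12 in the actin-adjusted fit. The second Dnm1l probe set, 1388022_a_at, had a difference of -0.18 in HCR (SE 0.13, adjusted p = 0.493) and 0.033 in LCR (SE 0.13, adjusted p = 0.952), at levels of 4.29 to 4.98 that are among the dimmer probe sets.

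Between trained rats Dnm1l was lower in every HCR rat, at most 7.26, than in any LCR rat, at least 7.42. The difference was -0.55 (SE 0.19, 95% interval -0.95 to -0.16), a 1.47-fold lower level in HCR, with an adjusted p of 0.128. When the 8 trained arrays were fitted by themselves the adjusted p was 0.0448, and with array weights it was 0.0303. In the actin-adjusted fit the difference was -0.27.

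Mff, the main receptor for DRP1 on the outer membrane, was higher in all HCR trained rats, at 10.97, 10.99, 10.92 and 10.90, against 10.76, 10.32, 10.74 and 10.79 in HCR sedentary rats. The groups did not overlap, and the SD was 0.04 in trained and 0.23 in sedentary rats. The difference was 0.30 (SE 0.10, 95% interval 0.084 to 0.51), a 1.23-fold level, with an adjusted p of 0.154. Without HCR sedentary 2, the array at 10.32, it was 0.18 (adjusted p = 0.337), and in the actin-adjusted fit it was 0.10. In LCR rats Mff read 10.80, 10.57, 10.80 and 10.92 after training, against 10.77, 10.96, 10.79 and 10.79 in sedentary rats, a difference of -0.055 (SE 0.10, adjusted p = 0.878). The responses differed by 0.35 (SE 0.14, 95% interval 0.05 to 0.65, adjusted p = 0.209). That value was 0.24 without HCR sedentary 2 and 0.053 in the actin-adjusted fit. The dim probe set 1384003_at of Mff stayed between 5.15 and 5.49 on all arrays, with a HCR training difference of -0.078 (SE 0.079, adjusted p = 0.645).

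Fis1, the small outer membrane protein of the fission group, averaged 10.77 ± 0.16 in HCR trained and 10.69 ± 0.36 in HCR sedentary rats, and 10.71 ± 0.16 in LCR trained and 10.92 ± 0.10 in LCR sedentary rats (SD, n = 4 each). The differences were 0.080 in HCR (SE 0.15, 95% interval -0.23 to 0.39, adjusted p = 0.823) and -0.21 in LCR (SE 0.15, 95% interval -0.52 to 0.10, adjusted p = 0.657). HCR sedentary 2 read 10.15, and without it the HCR difference was -0.10, and in the actin-adjusted fit it was -0.17.

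For the cristae gene Immt, the brightest of its 3 probe sets read 11.52, 11.53, 11.67 and 11.67 in HCR trained rats, against 11.56, 11.28, 11.32 and 11.54 in HCR sedentary rats. The groups overlapped, and the difference was 0.17 (SE 0.08, adjusted p = 0.285), or 0.073 in the actin-adjusted fit. In LCR rats it averaged 11.45 ± 0.06 after training and 11.54 ± 0.14 in sedentary rats (SD, n = 4 each), a difference of -0.097 (SE 0.082, adjusted p = 0.715). Between trained rats every HCR value was above every LCR value, the highest of which was 11.51, with a difference of 0.15 (SE 0.08, adjusted p = 0.330).

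The other probe sets of Immt moved apart from each other. Probe set 1380154_at averaged 6.19 ± 0.21 in HCR trained and 5.66 ± 0.40 in HCR sedentary rats (SD, n = 4 each), a difference of 0.53 (SE 0.20, adjusted p = 0.188), with a response that exceeded the LCR response by 0.81 (95% interval 0.22 to 1.41, adjusted p = 0.163). Its HCR difference was 0.38 without HCR sedentary 2 and 0.18 in the actin-adjusted fit. Probe set 1385423_at averaged 5.76 ± 0.53 in HCR trained and 6.35 ± 0.43 in HCR sedentary rats, a difference of -0.59 (SE 0.31, adjusted p = 0.332). Between trained rats it was lower in every HCR rat than in any LCR rat, with a difference of -0.92 (SE 0.31, 95% interval -1.58 to -0.26, adjusted p = 0.127), or -0.38 in the actin-adjusted fit. No direction for Immt therefore follows from its 3 probe sets together, and their mean over the trained lines was lower in HCR, with a difference of -0.091.

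**Figure D2:**
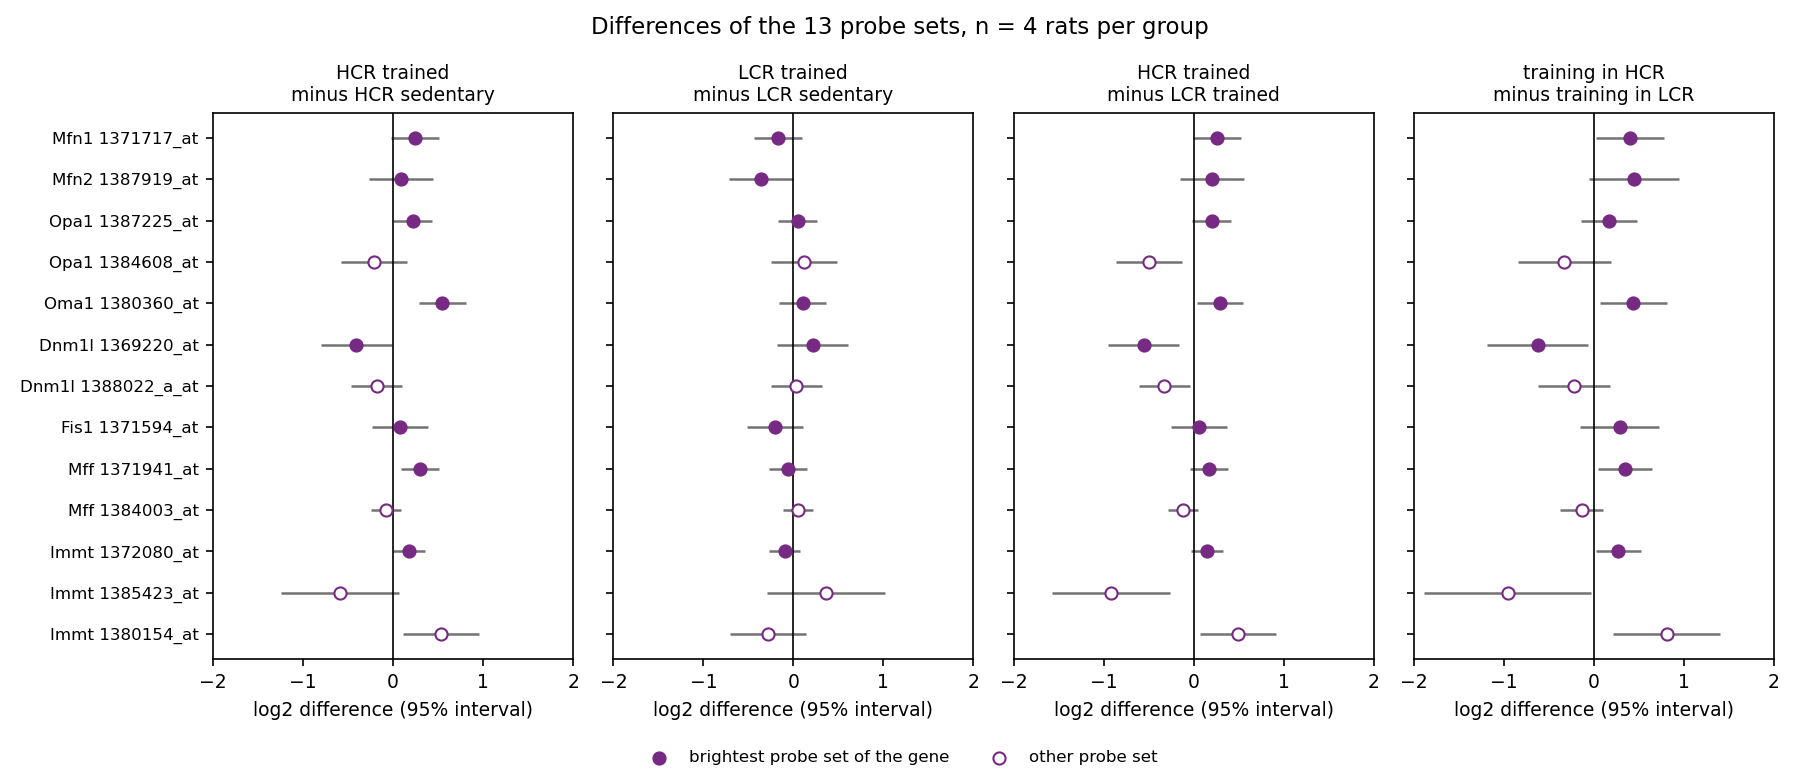
Log2 differences of the 13 probe sets with 95% intervals from limma, for training in HCR, training in LCR, HCR against LCR in trained rats, and the difference between the 2 training responses, with filled circles for the brightest probe set of a gene and open circles for the others. Several intervals exclude 0, such as that of Oma1 at 0.55 in HCR, but no probe set passed after adjustment, and the open circles of Opa1, Mff and Immt 1385423_at lie across 0 from their gene's filled circle in the first panel.

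Probe sets of 1 gene also differed in how they went with the beta-actin index. Across the 16 arrays 8 of 13 probe sets correlated with the index after adjustment over the 13 relations, 5 positively and 3 negatively, in a permutation test of Pearson's r. The permutation ran across the groups, so its p-values also hold differences between groups. Mfn1 had r = 0.86 (permutation p adjusted 0.00026) and rho = 0.732 (permutation p adjusted 0.00711), and r was 0.726 without HCR sedentary 2 and HCR trained 2, the 2 arrays farthest from the median index. For Mff, r was 0.805 and rho 0.635 (permutation p adjusted 0.00195 and 0.0206), with r at 0.508 without those arrays. Dnm1l ran the other way, with r = -0.714 and rho = -0.712 (permutation p adjusted 0.0026 and 0.00858), and r was -0.811 without the 2 arrays.

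Immt held both signs. Its probe set 1380154_at had r = 0.767 and rho = 0.741 (permutation p adjusted 0.00195 and 0.00711), and its probe set 1385423_at had r = -0.731 and rho = -0.785 (permutation p adjusted 0.0026 and 0.00611). Without the 2 farthest arrays these were 0.649 and -0.864. Inside groups, after each group's mean was taken off, r was 0.594 for 1380154_at, -0.664 for 1385423_at, 0.802 for Mfn1, 0.696 for Mff and -0.593 for Dnm1l. Mfn2 passed by r (0.614, permutation p adjusted 0.022) and not by rho (0.397, permutation p adjusted 0.139), and without the 2 farthest arrays r was 0.385. Oma1 had r = 0.519 and rho = 0.547 (permutation p adjusted 0.0502 and 0.0435), and Opa1 r = 0.053. What the index reads in these rats was not tested.

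**Figure D3:**
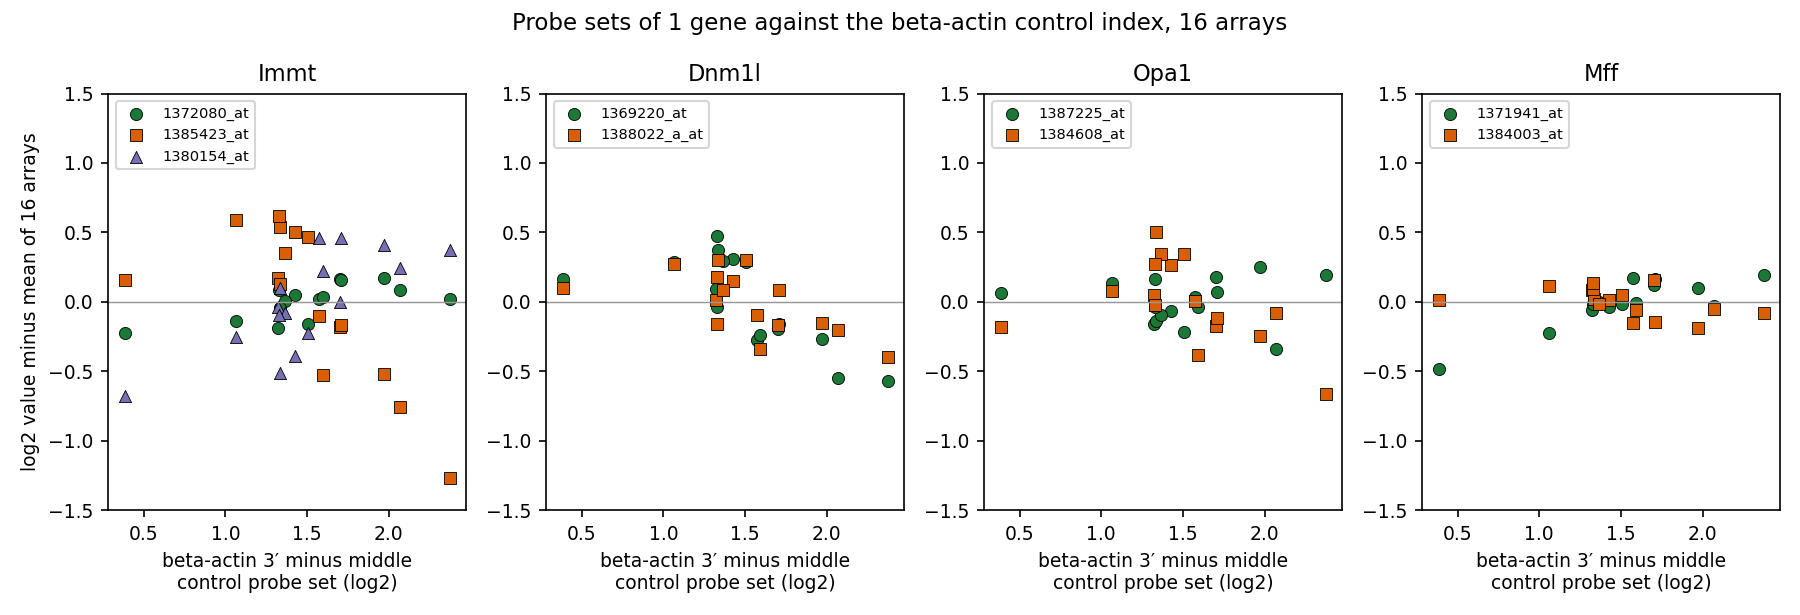
Probe sets of Immt, Dnm1l, Opa1 and Mff against the beta-actin index of each array (n = 16 arrays). Values are log2 levels minus the probe set's mean over the 16 arrays, and colours and markers tell the probe sets of a gene apart. Immt 1380154_at climbs along the index (r = 0.767). The brightest probe set of Dnm1l and Immt 1385423_at decline along it (r = -0.714 and -0.731).

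Between the lines the comparison of trained rats shares its HCR trained arrays with the comparison of training in HCR. HCR trained rats read higher than LCR trained rats for 7 of the 8 genes and lower for Dnm1l, with a median difference of 0.19, against 0.044 over all probe sets. Over all 13 probe sets the split was 8 higher and 5 lower. In limma 0 of 13 passed, against 0.374% of all probe sets, while 6 of 13 had an unadjusted p under 0.05, 2 higher and 4 lower, against 19.7% of all. Groups did not overlap for 3 of 13, Immt higher and Dnm1l and Immt 1385423_at lower, against 13.6% of all. At an unadjusted p under 0.05 there were 4 higher and 4 lower without HCR sedentary 2, against 3943 and 2928 of all 31042. Without HCR trained 3 there were 2 and 5, against 3628 and 2674, and in the actin-adjusted fit 1 and 0, against 1460 and 1080. For Mfn1 the difference was 0.26 (SE 0.13, adjusted p = 0.271), for Oma1 0.29 (SE 0.12, adjusted p = 0.200) and for Opa1 0.20 (SE 0.10, adjusted p = 0.295). The second Opa1 probe set, 1384608_at, went the other way, at -0.50 (SE 0.17, 95% interval -0.86 to -0.13, adjusted p = 0.136). The split of the 8 genes was 5 higher and 3 lower in the actin-adjusted fit, with a median of 0.0033, where Mfn1 stood at 0.0023 and Mfn2 at -0.064.

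Among sedentary rats, HCR rats read higher for 2 of the 8 genes and lower for 6, with a median difference of -0.15, against 0.0057 over all probe sets. None of the 13 passed in limma, against 0.00966% of all, 0 had an unadjusted p under 0.05, against 8.37%, and 0 had groups that did not overlap, against 4.87%. The lowest difference was -0.31 for Immt 1380154_at (SE 0.20, adjusted p = 0.661), followed by -0.24 for Mfn2 (SE 0.17, adjusted p = 0.686). With HCR sedentary 2 left out, 1 gene read higher and 7 lower, with a median of -0.041, and the actin-adjusted fit gave 1 and 7, with a median of -0.052.

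The interaction asks whether training acted differently in the 2 lines. The HCR response exceeded the LCR response for 7 of the 8 genes and was below it for Dnm1l, with a median of 0.32, against 0.035 over all probe sets. In limma 0 of 13 passed, as did 0% of all probe sets, and 7 of 13 had an unadjusted p under 0.05, against 18.3% of all. These were Mfn1, Mff, Oma1, Immt and Immt 1380154_at on the positive side and Dnm1l and Immt 1385423_at on the negative side. Without HCR sedentary 2 there were 3 positive and 0 negative, against 2705 and 1866 of all 31042 probe sets. In the actin-adjusted fit there were 0 of either sign, against 754 and 551. Without HCR trained 3 there were 5 and 3, against 4032 and 2516. Over all 13 probe sets the split by direction was 8 positive and 5 negative. The split of the 8 genes was again 7 to 1 without HCR sedentary 2, with a median of 0.23, and in the actin-adjusted fit it was 4 to 4, with a median of 0.015. The means of matrix, macrophage, adipocyte and Schwann cell markers also had training differences of opposite sign in the 2 lines. The endothelium and fast fibre means were higher after training in both lines. The slow fibre mean was lower in both, but in HCR this rests on HCR trained 3, at -2.36. On the other HCR trained arrays it was 0.11 to 0.21, within the HCR sedentary range of -0.03 to 0.26. In LCR it was 0.15 in trained and 0.19 in sedentary rats. The mean of 5 of 5 matrix genes stood at -0.46 in HCR trained and 0.32 in HCR sedentary rats, and at 0.47 in LCR trained and -0.33 in LCR sedentary rats (log2 deviation from the mean of all arrays). Its range was -0.56 to -0.37 in HCR trained, -0.39 to 1.39 in HCR sedentary, -0.21 to 1.07 in LCR trained and -0.65 to 0.039 in LCR sedentary rats. The mean of 8 of 8 macrophage genes was -0.15 in HCR trained and 0.18 in HCR sedentary rats, and 0.22 in LCR trained and -0.25 in LCR sedentary rats. Its range was -0.61 to 0.050 in HCR trained and -0.18 to 0.98 in HCR sedentary rats, with the highest value on HCR sedentary 2. The part of these cells in the members' differences was not tested.

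Averaged over the lines, training gave 0 of 13 calls in limma, against 0.00644% of all probe sets, and 1 of 13, Oma1, at an unadjusted p under 0.05, against 9.55%. Averaged over training states, the lines gave 0 of 13 calls, against 0.087% of all, and 2 of 13 at an unadjusted p under 0.05, both lower in HCR, against 10.4%.

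The balance between fusion and fission transcripts was described per array, as the mean deviation of Mfn1, Mfn2 and Opa1 minus that of Dnm1l, Fis1 and Mff, where a deviation is a gene's log2 level minus its mean over the 16 arrays. It was 0.17, 0.36, -0.08 and 0.25 in HCR trained rats, against -0.03, -0.05, -0.03 and 0.05 in HCR sedentary rats. Thus 3 of 4 HCR trained rats lay above all HCR sedentary rats, and HCR trained 3, the array with fast fibre transcripts, lay below them. In LCR rats it was -0.20, -0.06, -0.24 and -0.10 after training, against 0.16, 0.04, -0.05 and -0.19 in sedentary rats. The LCR trained values were all under 0, and the sedentary values spanned both sides. Members of this balance went with the beta-actin index. The r of Mfn1 (0.86) and Dnm1l (-0.714) has the sign that raises the balance along the index, and that of Mff (0.805) the sign that lowers it. HCR trained 2, with the highest balance, also had the highest index, 2.37. The part of the index in the balance was not tested, and Opa1 enters by its brightest probe set only.

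The wider pathway was read from a list of 49 other genes of fusion, fission, OPA1 processing, cristae and mitochondrial movement, of which 44 were measured. In HCR 33 of 44 read higher after training and 11 lower, with a median of 0.16, and in LCR 13 read higher and 31 lower, with a median of -0.066. Of all 31042 probe sets 15868 read higher and 15174 lower in HCR, with a median of 0.0044. In LCR 12927 read higher and 18115 lower, with a median of -0.024. None of the 44 pathway genes passed in either line in limma. At an unadjusted p under 0.05 there were 11 in HCR, all higher, against 17.7% of all probe sets, and 3 in LCR, all lower, against 9.76%. Trained and sedentary values did not overlap for 6 genes in HCR, all higher, against 7.61% of all probe sets, and for 5 in LCR, all lower, against 8.5%. Within the list, 5 of 5 other fusion genes, 13 of 20 fission genes, 5 of 6 OPA1-processing genes, 7 of 9 cristae genes and 3 of 4 movement genes read higher in HCR. In LCR 3 of 5 fusion, 14 of 20 fission, 6 of 6 OPA1-processing, 4 of 9 cristae and 4 of 4 movement genes read lower. The groups also hold regulators and related genes, such as Prkaca in the fission group and Dele1 in the OPA1-processing group. Their counts therefore do not give the direction of a process.

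These counts were repeated in HCR without each array that stood apart. Without HCR sedentary 2 the split was 32 to 12 with a median of 0.077. Of these genes 8 higher and 1 lower had an unadjusted p under 0.05. Without HCR trained 3 there were 15 higher and 2 lower at that p, 1 gene passed in limma, and the split was 36 to 8. In the actin-adjusted fit it was 26 to 18 in HCR with a median of 0.049, and in LCR 19 were higher and 25 lower. That fit left 1 higher and 3 lower in HCR at an unadjusted p under 0.05. In LCR, leaving out HCR sedentary 2 changes only the pooled SE, and 8 genes were then lower at an unadjusted p under 0.05. The index and these counts thus moved together, and its part in them was not tested beyond this fit.

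The smallest p-values in HCR belonged to Fundc1, an outer membrane receptor of mitophagy that also binds DRP1, Trak2, an adaptor that links mitochondria to motor proteins, and Slc25a46, an outer membrane protein tied to fusion. Fundc1 read 7.40, 7.54, 7.18 and 7.73 in HCR trained rats, against 7.10, 6.55, 6.97 and 7.10 in HCR sedentary rats, with no overlap and a difference of 0.53 (SE 0.14, adjusted p = 0.103). Trak2 averaged 9.64 in HCR trained and 9.18 in HCR sedentary rats, a difference of 0.46 (SE 0.13, adjusted p = 0.113), and Slc25a46 averaged 10.11 in HCR trained and 9.91 in HCR sedentary rats, a difference of 0.20 (SE 0.06, adjusted p = 0.118). The Fundc1 difference was 0.41 without HCR sedentary 2 and 0.28 in the actin-adjusted fit, and the Trak2 difference was 0.33 and 0.24. In LCR they belonged to Mief2, an adaptor for DRP1, Prkaca, the catalytic subunit of the kinase that phosphorylates DRP1, and Mtfr1l, a regulator of mitochondrial shape.

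Mief2 read 10.09, 10.14, 10.24 and 10.38 in LCR trained rats, against 10.71, 10.59, 10.49 and 10.53 in LCR sedentary rats, with no overlap and a difference of -0.37 (SE 0.12, adjusted p = 0.372). In HCR rats its difference was -0.22 (SE 0.12, adjusted p = 0.372). Prkaca differed by -0.44 in LCR (SE 0.18, adjusted p = 0.466) and Mtfr1l by -0.34 (SE 0.14, adjusted p = 0.466). The Prkaca value was -0.25 in the actin-adjusted fit, and the HCR difference of Mief2 was -0.42 there.

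Between trained rats 33 of 44 pathway genes read higher in HCR and 11 lower, with a median of 0.083. Over all probe sets 19405 of 31042 read higher and 11637 lower, with a median of 0.044. Of the 44, 0 passed the threshold in limma and 9, all higher, had an unadjusted p under 0.05, against 19.7% of all probe sets. Without HCR trained 3 the split of the 44 was 37 to 7. The actin-adjusted fit gave 19 higher and 25 lower, with a median of -0.028. Trak2 differed by 0.57 (SE 0.13, adjusted p = 0.0606), with all HCR trained rats at 9.54 or more and all LCR trained rats at 9.29 or less. Its adjusted p was 0.0268 without HCR sedentary 2, which is not part of this difference and changes only the pooled SE, and in the actin-adjusted fit the difference was 0.37 (adjusted p = 0.522). Pde2a, a phosphodiesterase that acts on DRP1 through cAMP, differed by 0.34 (SE 0.10, adjusted p = 0.105) and Miga2, an outer membrane fusion protein, by 0.29 (SE 0.09, adjusted p = 0.113), both without overlap, and these were 0.18 and 0.15 in the actin-adjusted fit. In sedentary rats 7 read higher in HCR and 37 lower, with a median of -0.097. Of all 31042 probe sets 16089 read higher and 14953 lower, with a median of 0.0057. Of the 44, 0 passed the threshold, and 1 higher and 4 lower had an unadjusted p under 0.05, against 8.37% of all probe sets. With HCR sedentary 2 left out the split was 16 to 28 with a median of -0.054, and 1 higher and 0 lower had an unadjusted p under 0.05. It was 12 to 32 in the actin-adjusted fit, with a median of -0.046. The smallest p-value was that of Chchd6, a MICOS subunit, higher by 0.39 (SE 0.10, adjusted p = 0.440). Mtfr1 followed with -0.35 and Rhot2, which anchors mitochondria to their motors, with -0.37. Without HCR sedentary 2 these 3 differences were 0.30, -0.24 and -0.22, and in the actin-adjusted fit 0.28, -0.21 and -0.27.

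For the interaction 39 of 44 pathway genes had the greater response in HCR and 5 in LCR, with a median of 0.20. Of all 31042 probe sets 17726 were positive and 13316 negative, with a median of 0.035. Of the 44, 0 passed the threshold and 9, all positive, had an unadjusted p under 0.05, against 18.3% of all probe sets. Without HCR trained 3 there were 14 positive and 1 negative at that p. Trak2 led with 0.61 (SE 0.18, adjusted p = 0.133), followed by Pde2a with 0.46 (SE 0.14, adjusted p = 0.141) and Rhot1, the partner of TRAK proteins on the outer membrane, with 0.36 (SE 0.12, adjusted p = 0.160). The split was 36 to 8 without HCR sedentary 2, with 5 positive at an unadjusted p under 0.05, and in the actin-adjusted fit it was 24 to 20, with 0. In that fit the interactions of Trak2, Pde2a and Rhot1 were 0.28, 0.19 and 0.14.

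**Figure D4:**
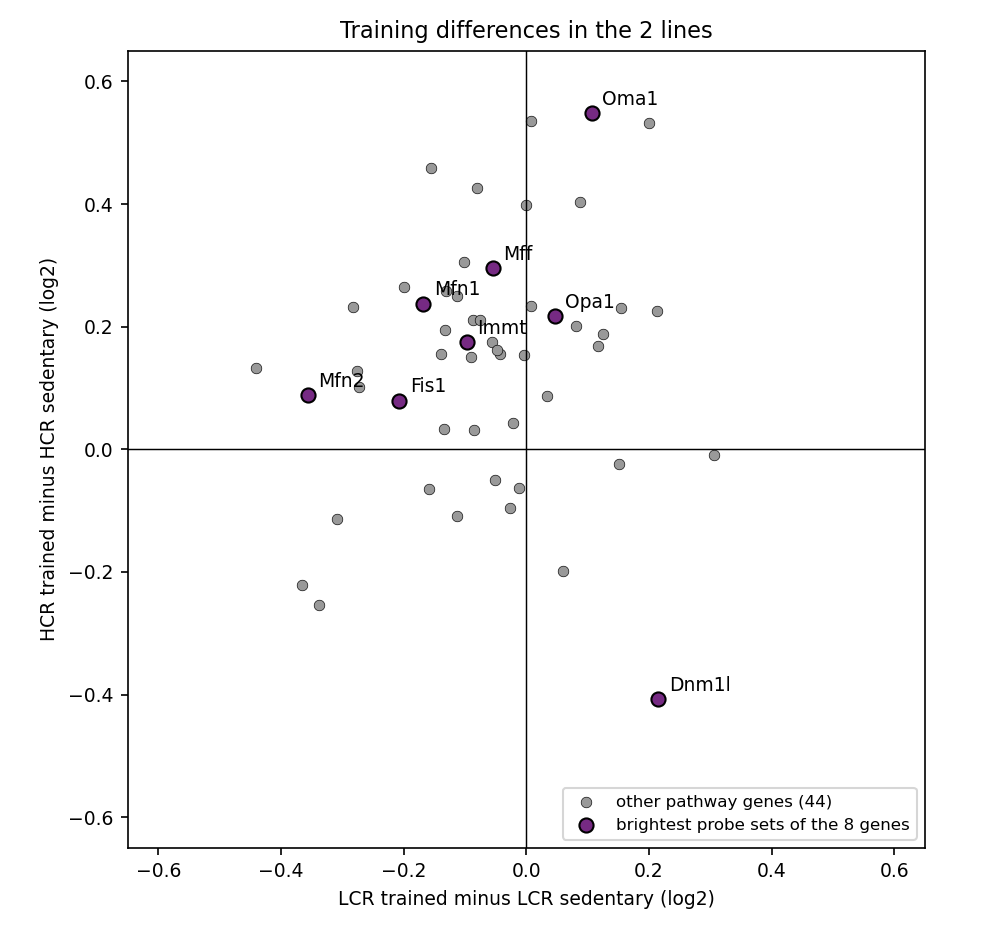
Training difference in HCR against training difference in LCR (log2) for the 8 genes and the 44 other pathway genes. The comparisons share no arrays, and most genes lie above 0 for HCR (33 of 44 pathway genes) and under 0 for LCR (31 of 44), with Oma1 at 0.55 and 0.11, Mfn2 at 0.088 and -0.36 and Dnm1l at -0.41 and 0.22.

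Genes of the respiratory chain and other common measures of mitochondrial content were read beside the members. Of 17 measured, 14 read higher with training in HCR, with a median of 0.15, and 7 in LCR, with a median of -0.0083. Only Cox7a1, a muscle subunit of cytochrome c oxidase, passed in limma, higher in trained rats in both lines. Its differences were 2.00 in HCR and 1.67 in LCR. The HCR split was 9 higher and 8 lower without HCR sedentary 2, with a median of 0.0064. Leaving out that array changes only the pooled SE of the LCR difference of Cox7a1, whose adjusted p became 0.0589. In the actin-adjusted fit 3 content genes read higher and 14 lower in HCR, with a median of -0.062, and 14 read higher and 3 lower in LCR, with a median of 0.088. Cox7a1 passed in neither line there, with differences of 1.96 and 1.69 (adjusted p = 0.119 and 0.196). Citrate synthase, Cs, a common measure of mitochondrial content, was higher in all HCR trained than in any HCR sedentary rats, by 0.33 (SE 0.11, adjusted p = 0.161), and differed by 0.011 in LCR. Its HCR difference was 0.18 without HCR sedentary 2 (adjusted p = 0.315) and 0.063 in the actin-adjusted fit.

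Across arrays the mean of the content genes went with 3 of the 8 members by Pearson's r. Mff had r = 0.86 and rho = 0.75 (permutation p adjusted over 8 relations 0.0044 and 0.0064), and r was 0.667 without HCR sedentary 2 and LCR sedentary 4, the farthest arrays. Mfn1 (r = 0.70, rho = 0.344) and Immt (r = 0.613, rho = 0.403) passed by r (permutation p adjusted 0.0146 for each) but not by rho (permutation p adjusted 0.382 and 0.326). Without the 2 arrays their r was 0.217 and 0.275, so these relations rest on those arrays. Oma1 passed by rho alone (0.741, permutation p adjusted 0.0064; r = 0.511, permutation p adjusted 0.0572). Inside groups, after each group's mean was taken off, r was 0.191 for Oma1 and 0.899 for Mff. The content mean includes Cox7a1, with training differences of 2.00 in HCR and 1.67 in LCR, and the part of that gene in these relations was not tested.

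Of the 6 regulators of mitochondrial genes, 0 passed in limma in either line, with 0 in HCR and 1 in LCR at an unadjusted p under 0.05, against 17.7% and 9.76% of all probe sets. Ppargc1a, which encodes PGC-1alpha, differed by 0.20 in HCR (SE 0.20, adjusted p = 0.647), or 0.0019 without HCR sedentary 2, and by 0.40 in LCR (SE 0.20, adjusted p = 0.546). Gabpa was higher in every LCR trained than in any LCR sedentary rat, by 0.38 (SE 0.13, adjusted p = 0.369), and differed by 0.15 in HCR. Nrf1 differed by -0.13 in HCR (SE 0.08, adjusted p = 0.393), Tfam by 0.12 (SE 0.06, adjusted p = 0.332), or 0.073 without HCR sedentary 2, and Ppargc1b by -0.41 (SE 0.28, adjusted p = 0.477).

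Among the 28 pairs of members, 13 correlated across the 16 arrays by Pearson's r after adjustment over the pairs, 12 positively. By Spearman's rho 1 pair passed, Mff with Oma1 (rho = 0.812, permutation p adjusted 0.00672; r = 0.573, permutation p adjusted 0.0402), and r was 0.731 without the 2 arrays farthest on Mff, HCR sedentary 2 and LCR trained 2. Inside groups its r was 0.222. The pair Mfn1 and Mff had r = 0.808 and rho = 0.529 (permutation p adjusted 0.0132 and 0.118), with r at 0.424 without the farthest arrays. The 1 negative pair was Mfn1 with Dnm1l (r = -0.614, rho = -0.603, permutation p adjusted 0.035 and 0.114), at -0.705 without its farthest arrays. The r of 0.68 between Fis1 and Mff became -0.278 without HCR sedentary 2 and LCR trained 2, so that relation rests on those arrays.

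The transcripts most like each member were found by r over the 16 arrays after group means were taken off, among 10696 genes. For Mfn2 they were Perm1, a muscle gene induced by PGC-1alpha and ERR (r = 0.973, and 0.916 without HCR sedentary 2), Tmem150c (0.966) and Phyh (0.96). For Mfn1 they were Car4 (0.946), Plcd3 (0.945) and Heyl (0.939), for Mff Cdadc1 (0.954), Atp5f1c (0.952) and Me3 (0.952), and for Fis1 Ppp3cc (0.943), Tmem276 (0.941) and Pdss2 (0.941). For Dnm1l they were Dmxl1 (0.931), Anp32a (0.927) and Rapgef1 (0.925), and for Immt Cox14 (0.873), Txnl4b (0.87) and Ndufaf7 (0.864). Oma1 had Znhit1 (0.876), Dus2 (0.862) and Ccndbp1 (0.846), and Opa1 had the weakest likeness, with Tmed7 (0.797), Vash1 (0.783) and Lin37 (0.769). Atp5f1c, a subunit of ATP synthase, and Cox14 and Ndufaf7, assembly factors of the respiratory chain, are mitochondrial. All of these share their arrays, so the values describe likeness only.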

How the data were processed

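Soleus RNA of 16 rats was measured on 16 one-colour arrays. The values are the log2 expression values per probe set that the authors deposited. Per the submitters' processing notes the tools were RMA and limma. Neither their versions nor whether all arrays were summarised together is given in the sources used here. RMA removes shifts common to an array, so a difference is read against the bulk of probe sets, and levels of different probe sets cannot be compared. No detection calls were used. Precision is limited by the number of arrays. Scan batches were not analysed here.

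Here 57 control probe sets were left out and 31042 were tested, of which 20826 had 1 gene symbol, 436 several and 9780 none. limma 3.58.1 in R 4.3.3 was fitted with lmFit and eBayes to 4 group means over 16 arrays (12 residual degrees of freedom), with Benjamini-Hochberg adjustment over all probe sets within a comparison and a threshold of 0.05. Intervals are 95% and two-sided. The fit was tested on simulated data. Correlations used 100000 two-sided permutations (scipy 1.17.1 in Python 3.11.15), adjusted within each family. In every family arrays were permuted across the groups, so these p-values do not part group differences from relations between arrays. No permutation within groups was made. Counts by direction take the sign of every difference, also of those no larger than their SE, and such differences are not counted as reversed in the alternatives.

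The members, the gene lists and the tests were chosen with earlier results of these data known. All 13 probe sets are named. Of the other pathway genes, those of the 3 smallest p-values per comparison are named, since none passed. The 3 most like genes came from probe sets with 1 symbol, the brightest per gene, at or above the 40th percentile. The pathway genes Pld6, Chchd4, Senp5, Phb1 and Micos10 and the content gene Cycs had no probe set of their own symbol. Of 44 cell type markers 41 were measured, 1 of them under that percentile. Promoter windows are those of RefSeq for GRCr8.

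Alternatives were quantile normalization, median centring, a filter on dim probe sets, trend and robust moderation, array weights, the beta-actin index as a covariate (actin-adjusted fit), the replicate number as a block, only the compared groups, the mean of a gene's probe sets, and leaving out single arrays or HCR sedentary 2 with HCR trained 3.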

Additional observations from a re-analysis of the deposited data

Results flagged for a closer look

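In 5 of 52 groups of 4 rats, over the 13 probe sets, 1 rat lay farther from the other 3 than Dixon's criterion allows, where chance gives about 1 in 20 groups. HCR sedentary 2 was low for 3 genes. It read 9.36 for Mfn1, against 9.84 to 9.92 in the other HCR sedentary rats, 10.15 for Fis1, against 10.81 to 10.93, and 10.32 for Mff, against 10.74 to 10.79. LCR sedentary 2 was high for 2 genes. It read 10.96 for Mff, against 10.77 to 10.79 in the other LCR sedentary rats, and 7.87 for Oma1, against 7.38 to 7.44.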

How the results depend on the processing

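Each of 91 differences (13 probe sets in 7 comparisons) was recomputed under up to 26 alternatives, 2250 values in all. In 2227 the side of the threshold was kept and no difference beyond its SE turned round, 10 newly passed and 13 reversed, with 0 of the 13 reversals coming from a single array left out. The cause was not tested in either case. In the actin-adjusted fit, reversed values were -0.054 (Mfn1, training in HCR), 0.042 (Mfn1, sedentary lines), -0.040 (Mfn1, interaction), -0.064 (Mfn2, trained lines), -0.022 (Mfn2, interaction), 0.052 and 0.14 (Dnm1l 1388022_a_at, training in HCR and interaction), -0.090 (Fis1, interaction) and 0.027 (Immt 1385423_at, training in HCR). With the mean of a gene's probe sets they were -0.15, -0.080 and -0.11 (Opa1, trained lines, interaction and lines averaged) and -0.091 (Immt, trained lines).

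The number of members called, 0 in all 7 comparisons, became 1 for training in HCR, 4 for trained lines and 1 for averaged training with array weights, and 1 for trained lines in a fit of those groups alone. With array weights the calls were Oma1 in HCR (0.60, adjusted p = 0.0262) and averaged (0.40, adjusted p = 0.0211), and between trained lines Dnm1l (-0.58), Opa1 1384608_at (-0.53), Immt 1385423_at (-0.90) and Immt 1380154_at (0.62). Leaving out single arrays gave 0 to 1 members for training in HCR, always Oma1, and 0 to 0 elsewhere. The count for training in HCR was 1 without HCR trained 1, HCR sedentary 4 or LCR sedentary 2.

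The counts over all probe sets moved far more. For training in HCR they ran from 0 to 1304 (58 in the main result), in LCR from 0 to 321 (1), between trained lines from 5 to 3525 (116), between sedentary lines from 1 to 10 (3), for the interaction from 0 to 233 (0), for averaged training from 1 to 1148 (2) and for averaged lines from 15 to 338 (27). The highest came with array weights, except between sedentary lines, where it came without HCR sedentary 2 and HCR trained 3.

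Replicate numbers did not pair the rats: deviations of 24 same-numbered pairs of arrays had a median r of 0.03 (-0.48 to 0.57, 8 over 0.1), against 0.02 for 72 other pairs. With the replicate block 0 members were called in all 7 comparisons, and over all probe sets 2 for training in HCR, 0 in LCR and 25 between trained lines. The fit of compared groups alone was by design not made for the interaction and the averaged comparisons. The counts by direction and by unadjusted p without HCR sedentary 2, without HCR trained 3 and with the actin adjustment were chosen after seeing the data. So were the values of single pathway, content and regulator genes in such fits. With 4 rats a group, SEs of 0.08 to 0.31 limit which differences could pass.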
